A study of Homo sapiens with 7 samples.

Results

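Heterogeneous nuclear ribonucleoproteins (hnRNPs) and related RNA-binding proteins were followed at the level of their own transcripts in HCT116, an established human colorectal carcinoma cell line. The genes were chosen by symbol from a list of 37, with no threshold on a measured value but with earlier results of these data known. Of the 37 symbols, 36 had a row among the 20056 rows with values, and SFPQ was not analysed here. All cells were in log phase, from a serum-free culture with epidermal growth factor, insulin and transferrin and no genotype separated the groups. Transcription rate (TR) was read by GRO-seq in 2 libraries, as the RNA that nuclei go on to extend with bromo-UTP after isolation. Steady-state mRNA abundance (RA) was read by RNA-seq in 3 libraries, and translation activity (TA) in 2 libraries, as the mRNA of the polysome fractions of a sucrose gradient. The TA cells alone were treated with cycloheximide, which holds ribosomes on mRNA, so this drug and the assay cannot be told apart. The RA and TA libraries were made from mRNA isolated with an mRNA kit, and the TR libraries from run-on RNA, so the TR comparisons also set different RNA preparations side by side.

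hnRNPs coat pre-mRNA as it leaves the polymerase, through RNA recognition motifs, KH domains and arginine-glycine-rich tails, and they take part in splicing, export, localization, decay and translation of the transcripts they bind. Most are among the abundant proteins of the nucleus, and several shuttle to the cytoplasm with mRNA. The related proteins described here bind defined elements in mRNA, such as AU-rich elements, U-rich tracts and Pumilio elements, or activate the use of weak exons. Many genes of this kind are known to adjust their own level through alternative exons or retained introns that take transcripts out of the coding pool.

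Each value was deposited as RPKM, the reads on the exons of a gene scaled to exon length and library size. The library sizes worked out from these values were 3391897 and 5629982 reads for TR, between 20299018 and 22532134 for RA, and 30805391 and 22421062 for TA. The 36 genes held 9 to 26621 reads per library, and at least 92 when HNRNPH2 was left aside. Copies made in PCR could not be removed without molecular identifiers, so these read numbers speak to counting error alone. RPKM are shares of a library, and bulk libraries average over all cells, so fewer cells with an mRNA and less of it per cell cannot be told apart. The 8 colorectal epithelial markers summed to between 470.3 RPKM in a TR library and 3265 in a TA library, led by KRT8. Of these 8, 6 reached a mean of 1 RPKM in TR and 5 in RA and in TA, while CEACAM5 and CEACAM6 were at 0 in every TR and RA library and VIL1 was at most 0.0356 RPKM in RA and TA. The 7 markers of leukocytes, fibroblasts, endothelium and hepatocytes summed to at most 20.8 RPKM, and only COL1A1 reached a mean of 1 RPKM.

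Transcripts of the hnRNP group were abundant in every assay. The median over the 36 genes was 48.2 RPKM in TR, 67.1 in RA and 71.1 in TA, against 14.2, 8.94 and 6.34 over all 14305 genes tested. The 90th percentile of the tested genes was exceeded by 20 of the 36 in TR, 22 in RA and 19 in TA. HNRNPA2B1, which binds pre-mRNA and sorts RNA to the cytoplasm, was the most abundant of the group in all 3 parameters, with a mean of 168 ± 19.1 RPKM in TR (SD, n = 2), 239 ± 89.1 in RA (n = 3) and 396 ± 23.5 in TA (n = 2). HNRNPH2 was the least abundant in all 3, and it passed the filter of a mean of 1 RPKM through TR alone, at 1.56 RPKM. The other 35 genes passed it in TR, RA and TA.

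**Figure D1:**
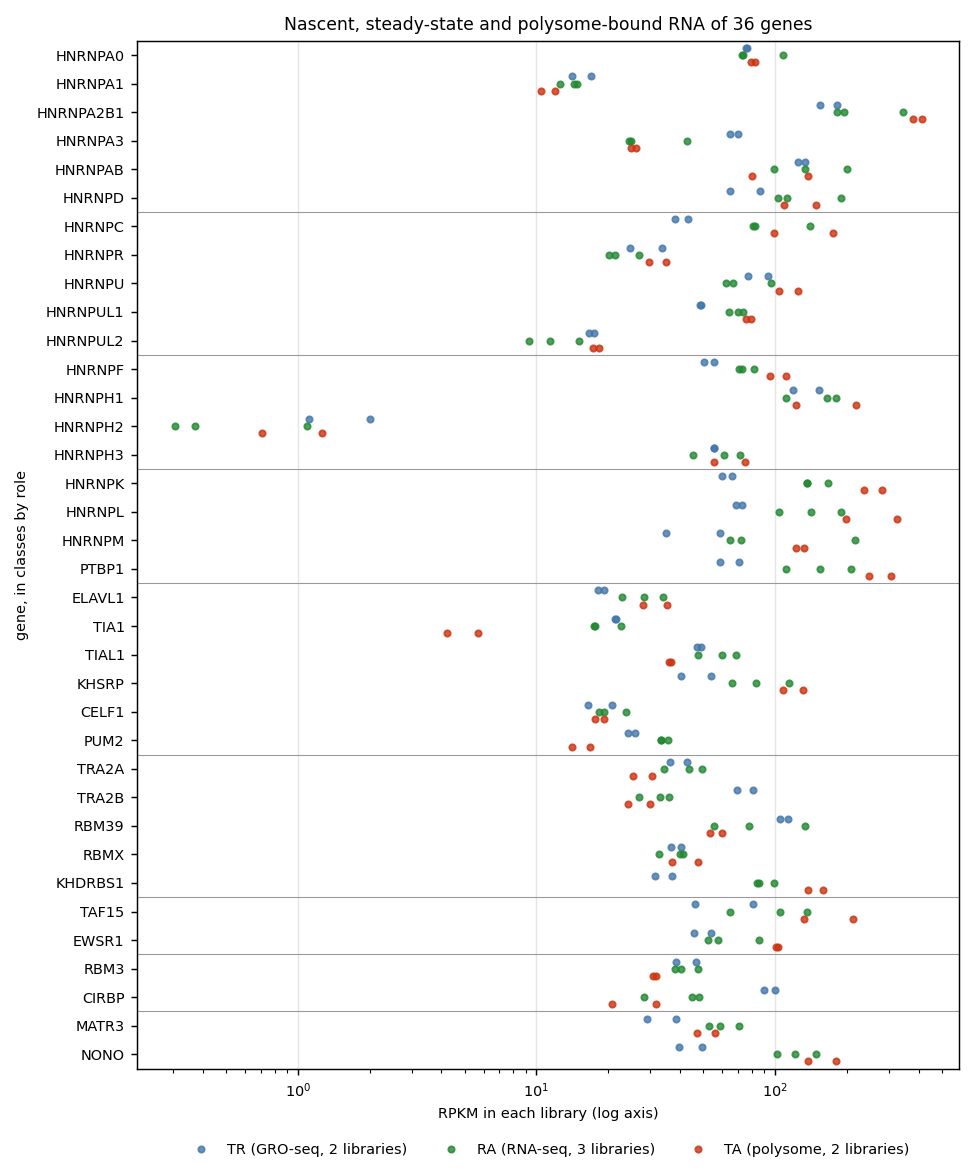
RPKM of each of the 36 genes in each library on a log axis, with TR in blue (2 libraries), RA in green (3 libraries) and TA in red (2 libraries), and grey lines between classes by role. HNRNPA2B1 reaches the highest values and HNRNPH2 lies between 0.305 and 2.005 RPKM, while TIA1 is far lower in both TA libraries than in any TR or RA library.

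RA was compared with TR to ask how the mRNA pool of each gene stood against its transcription. The mRNAs of NONO, KHDRBS1, HNRNPC, PTBP1 and HNRNPK stood furthest above their transcription, at 2.31 to 2.76 times the TR level. Those of CIRBP, TRA2B and HNRNPA3 stood furthest below among the 35 genes with a mean of 1 RPKM in each parameter, at 0.416 to 0.440 times the TR level. In a limma fit of log2(RPKM + 0.1) over all 7 libraries, with Benjamini-Hochberg adjustment over the 14305 genes, RA was called above TR for 13 of the 36 and below TR for 4, where a call is an adjusted p under 0.05. Over all genes tested, 19.2% were called higher and 48.0% lower. HNRNPH2, 1 of the 4, entered the test through TR alone, which favours a lower RA, and 3480 of the 14305 tested genes were under 1 RPKM in at least 1 parameter. In a fit over the 10825 genes with 1 RPKM in each parameter, 12 of the 35 members were called higher and 3 lower, beside 24.3% and 33.8% of those genes, and the median log2 difference was 0.28 for the 35 and -0.17 for all. The median log2 difference was 0.21 for the 36 genes and -0.58 for all tested genes, and all 3 RA libraries lay above both TR libraries for 15 of the 36 and below both for 5, as for 24.3% and 54.9% of all tested genes. Without RA replicate 3 the fit called 7 higher and 3 lower, and without TR replicate 1 or TR replicate 2 it also called fewer in both directions. Leaving out a library also lowers the degrees of freedom, and the share of all tested genes called in these refits was not set beside the counts. By TR, RA and TA the median percentile of the members was 90.5, 92.4 and 91.9. The paper describes RA as tending to exceed TR where expression is high and to fall short of it where expression is low. It also describes a wider spread of TA than of RA. No genes of matched level were set beside the group. The part of level in its contrasts with all tested genes, here and below, was not tested.

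TA was compared with RA to ask how far each mRNA was found on polysomes. TA came from lysate cleared of nuclei, and RA from the total RNA of the cells. Where TA was below RA, mRNA held in the nucleus and mRNA off polysomes in the cytoplasm cannot be told apart. HNRNPK, a poly(C)-binding protein with KH domains, and KHDRBS1 (Sam68), a signal-regulated splicing factor, had a higher TA than RA. TIA1 and TIAL1, U-rich binding proteins of stress granules, and PUM2, a Pumilio repressor of translation, had a lower TA. These 2 genes and these 3 were the calls among the 36, whereas 6.66% of all tested genes were called higher and 29.2% lower. The median log2 difference was 0.15 for the group and -0.37 for all tested genes. Both TA libraries lay above all 3 RA libraries for 11 of the 36 and below all 3 for 6, as for 14.4% and 43.8% of all tested genes. In the fit over genes with 1 RPKM in each parameter, 3 of 35 were called higher and 3 lower, beside 8.87% and 29.8% of the 10825 genes. The count of higher calls moved with single libraries, to 12 without RA replicate 1 and to 0 without RA replicate 3, and it fell without TA replicate 1. The share of all tested genes called in these refits was not set beside them, so the counts describe the stability of the calls alone. RA replicate 1 was the highest of the RA libraries for 26 of the 36 genes, or 72.2%, against 42.1% of all tested genes. TA replicate 1 was the higher of the TA libraries for 69.4% of the 36, against 50.7%, and TR replicate 1 the higher of the TR libraries for 63.9%, against 45.3%. The part of these library differences in the results was not tested. At an adjusted p = 0.0503 in limma, PTBP1 lay just outside the threshold of 0.05.

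TA against TR takes both steps together and shares its libraries with the other comparisons. Here 15 of the 36 were called higher and 6 lower by limma, where 17.0% of all tested genes were higher and 57.5% lower. With 1 RPKM required in each parameter, 15 of 35 were higher and 6 lower, beside 21.6% and 45.6%. KHDRBS1, PTBP1, HNRNPK, HNRNPL and NONO stood highest, with TA at 3.55 to 4.30 times TR. The lowest were TIA1 at 0.232 times and CIRBP at 0.272 times. Without TR replicate 2 the number of higher calls was smaller, with no share of all tested genes in that refit set beside it. Of the 21 calls, 10 were kept under all 15 alternative fits, namely those of HNRNPC, HNRNPUL1, HNRNPF, HNRNPK, HNRNPL, PTBP1, KHSRP, KHDRBS1, NONO and TIA1. Those of ELAVL1, EWSR1, HNRNPA2B1, HNRNPM, MATR3, RBM39 and TAF15 were each lost without at least 1 library, with a limma adjusted p of up to 0.258, for HNRNPM without TR replicate 2.

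**Figure D2:**
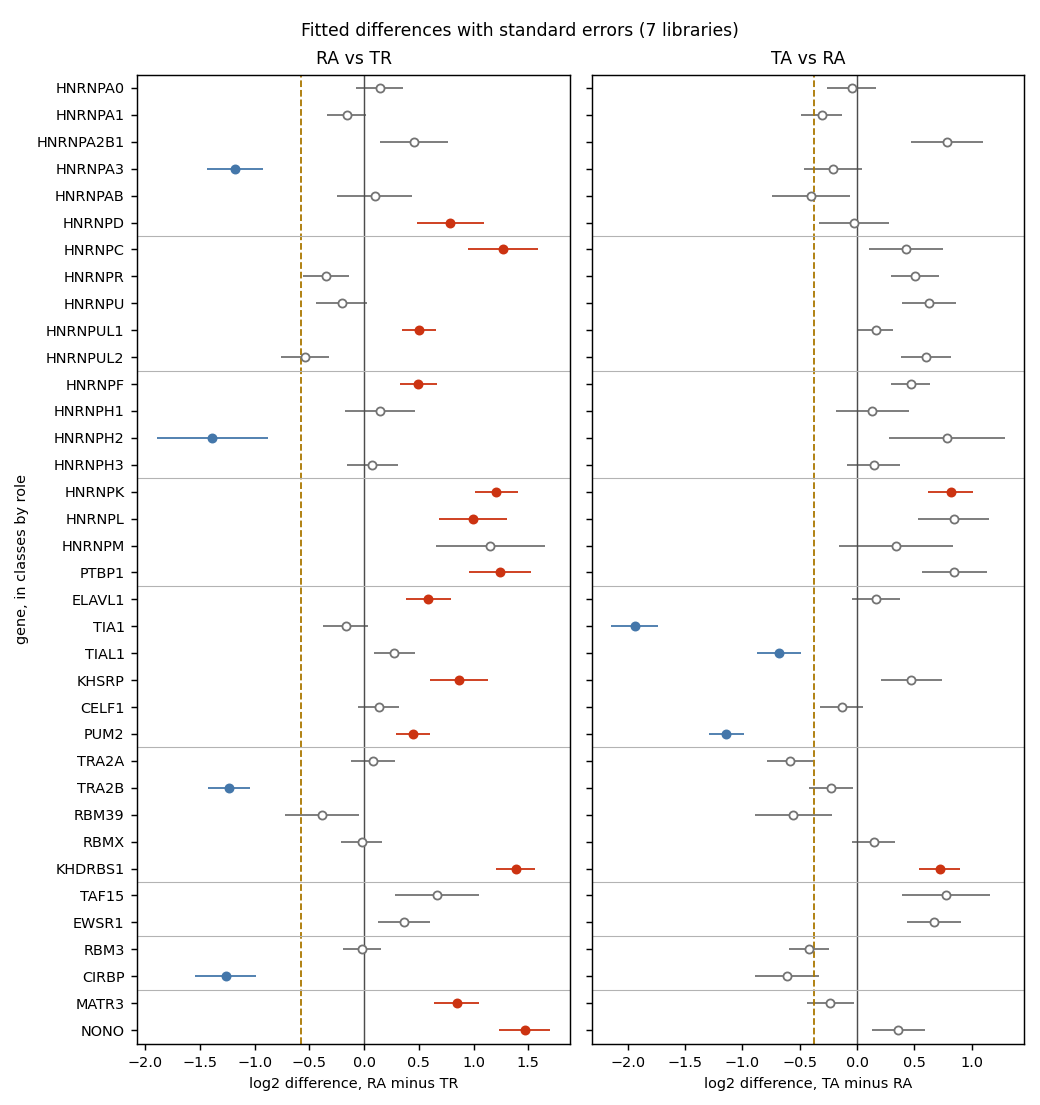
Fitted log2 differences of RA from TR (left) and of TA from RA (right) for the 36 genes, with bars of 1 standard error, red for genes called higher, blue for genes called lower and open grey for the rest. The dashed line is the median of all tested genes, at -0.58 on the left and -0.37 on the right, and most of the 36 lie to its right. HNRNPH2, the lowest on the left, passed the filter through TR alone.

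The zero of these comparisons depends on the scaling, since the median of all tested genes itself lay at -0.58, -0.37 and -1.08 in the 3 comparisons. Centring each library on its median moved these medians to 0.09, 0.13 and 0.09, and the medians of the 36 genes to 0.88, 0.65 and 1.42. It added 0.67, 0.50 and 1.17 to the log2 difference of every member and so turned negative values of 8, 9 and 8 of the 36 positive. After centring, 25 of the 36 were called higher and 1 lower for RA against TR, where 35.4% of all tested genes were higher and 33.7% lower. For TA against RA, 16 were called higher and 2 lower, beside 19.0% and 9.81% of all tested genes. For TA against TR, 29 were called higher and 1 lower, beside 38.0% and 35.3%. The 2 lower calls of TA against RA after centring were TIA1 and PUM2, and the lower call of RA against TR was TRA2B. For TA against TR the lower call left was TIA1. The lower calls of HNRNPA3, TRA2B, RBM39 and CIRBP in TA against TR were lost, and PUM2 was called higher there (0.48, limma adjusted p = 0.0417).

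In the A/B and D class, whose proteins package pre-mRNA and often repress splice sites, HNRNPD was called higher and HNRNPA3 lower for RA against TR, and none of the 6 was called for TA against RA. HNRNPA2B1 (chr7:26210771-26241149) had 182 and 154 RPKM in TR, 342, 182 and 194 in RA and 379 and 413 in TA, with values in the order of the replicates and gene positions on GRCh37 (hg19) throughout. Its RA libraries all lay above TR, replicate 2 only just, and its TA libraries above RA. The log2 differences were 0.45 (SE 0.31, limma adjusted p = 0.225) and 0.78 (SE 0.31, limma adjusted p = 0.0821). Its paralogue HNRNPA1 (chr12:54673977-54680872), a splicing repressor and shuttling protein, had 14.1 and 16.9 RPKM in TR, 14.3, 14.7 and 12.5 in RA and 10.4 and 11.9 in TA. The TR and RA values of HNRNPA1 overlapped and both TA libraries lay below them, with a log2 difference of TA from RA of -0.31 (SE 0.18, limma adjusted p = 0.209) and of RA from TR of -0.16 (SE 0.18, limma adjusted p = 0.458). Within a library, the log2 ratio of HNRNPA1 to HNRNPA2B1 was between -3.68 and -3.19 in TR, -4.57 and -3.62 in RA and -5.17 and -5.10 in TA, so the ranges of TA and of the other parameters did not overlap. For HNRNPA1, 40.1% of the 50-base stretches of its annotated mRNA occur exactly elsewhere in GRCh37, against 0.0% for HNRNPA2B1, and how reads of such stretches were counted is not given in the sources used here.

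HNRNPA3 (chr2:178077422-178088687) had 64.5 and 70.2 RPKM in TR, 42.6, 24.3 and 25.0 in RA and 24.9 and 26.2 in TA. Every RA and TA library lay below both TR libraries, and the log2 difference of RA from TR was -1.18 (SE 0.25, limma adjusted p = 0.00363), while that of TA from RA was -0.21 (SE 0.25, limma adjusted p = 0.548). The call of RA below TR was lost without TR replicate 2 (adjusted p = 0.0544) and after centring (-0.51, limma adjusted p = 0.0978). On its antisense strand, 59.8% of the HNRNPA3 mRNA is covered by NFE2L2, and 35.6% of its stretches occur elsewhere, so its level is uncertain. HNRNPD (AUF1), a binder of AU-rich elements in mRNA decay, had 86.5 and 64.8 RPKM in TR, 189, 103 and 112 in RA and 109 and 149 in TA. Its RA libraries all lay above TR, with a log2 difference of 0.79 (SE 0.31, limma adjusted p = 0.0493), and this call was lost without RA replicate 1, RA replicate 3, TA replicate 1, TA replicate 2, TR replicate 1 or TR replicate 2 (adjusted p = 0.0567 to 0.299). HNRNPA0 and HNRNPAB were called in none of the 3 comparisons of the values as deposited, with log2 differences of RA from TR of 0.14 and 0.10.

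In the C, R and U class, HNRNPC and HNRNPUL1 were called higher for RA against TR, beside 19.2% of all tested genes. All 5 had a positive but uncalled difference of TA from RA, with a median of 0.51. So did 4406 of the 14305 tested genes, by sign alone, and every gene of the F/H, the K, L, M and PTB and the FET classes. HNRNPC (chr14:21677295-21737653), which binds uridine tracts in the core hnRNP particle, had 38.2 and 43.0 RPKM in TR, 81.1, 140.2 and 82.0 in RA and 175 and 99.2 in TA. All RA values of HNRNPC exceeded both TR values, with a log2 difference of 1.27 (SE 0.32, limma adjusted p = 0.00822), and this call was lost without TR replicate 1 or TR replicate 2 (adjusted p = 0.0673 to 0.0895). For HNRNPC, 33.6% of the mRNA stretches occur elsewhere in the genome. HNRNPU (SAF-A), a nuclear scaffold protein that binds chromatin and RNA, had 93.5 and 76.8 RPKM in TR, 95.7, 66.5 and 62.0 in RA and 125 and 104 in TA, and a log2 difference of TA from RA of 0.63 (SE 0.24, limma adjusted p = 0.0696). HNRNPR had a log2 difference of TA from RA of 0.51 (SE 0.21, limma adjusted p = 0.0926). Without RA replicate 1, both HNRNPU and HNRNPR were called higher, with adjusted p of 0.0182 and 0.0472 in limma.

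The paralogues HNRNPUL1 and HNRNPUL2, which share the domain arrangement of HNRNPU, differed in how RA stood against TR, although the difference of HNRNPUL2 was not called and its sign depended on the scaling. HNRNPUL1 (chr19:41768401-41813692) had 48.4 and 48.8 RPKM in TR, 69.6, 64.2 and 73.3 in RA and 78.9 and 75.3 in TA, and its log2 difference of RA from TR was 0.50 (SE 0.16, limma adjusted p = 0.0203). This call was lost without RA replicate 3 (adjusted p = 0.0778). HNRNPUL2 (chr11:62480102-62494929) had 17.5 and 16.6 RPKM in TR, 15.1, 11.4 and 9.34 in RA and 18.3 and 17.2 in TA. All of its RA libraries lay below its TR and TA libraries, with a log2 difference of RA from TR of -0.54 (SE 0.22, limma adjusted p = 0.0577) and of TA from RA of 0.60 (SE 0.22, limma adjusted p = 0.065). After centring, its difference of RA from TR was 0.13, limma adjusted p = 0.612, and that of HNRNPUL1 1.17, limma adjusted p = 0.000245. Without RA replicate 1 both HNRNPUL2 differences were called, at -0.72 and 0.78. The log2 ratio of HNRNPUL1 to HNRNPUL2 within a library lay between 1.46 and 1.55 in TR, between 2.20 and 2.96 in RA and between 2.10 and 2.12 in TA. The read-through gene HNRNPUL2-BSCL2 covers 45.9% of the HNRNPUL2 mRNA on the same strand, and TGFB1 and a long non-coding RNA cover 14.4% of that of HNRNPUL1 on the other.

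The F/H class binds runs of guanine near splice sites and polyadenylation sites. HNRNPF (chr10:43881065-43904634) had 50.5 and 55.7 RPKM in TR, 81.4, 72.6 and 70.4 in RA and 112 and 95.5 in TA, so that the 3 parameters did not overlap and lay in the order TR, RA, TA. Its log2 difference was 0.49 (SE 0.17, limma adjusted p = 0.032) for RA from TR and 0.47 (SE 0.17, limma adjusted p = 0.0645) for TA from RA, and the former was lost without RA replicate 1, RA replicate 2, RA replicate 3, TR replicate 1 or TR replicate 2 (adjusted p = 0.0534 to 0.107). HNRNPH1 had 152 and 119 RPKM in TR, 180.2, 166 and 111 in RA and 219 and 123 in TA, and all 3 parameters overlapped, with log2 differences of 0.15 (SE 0.32, limma adjusted p = 0.702) and 0.13 (SE 0.32, limma adjusted p = 0.774). HNRNPH2 (chrX:100663210-100669121), its X-linked paralogue, had 1.11 and 2.005 RPKM in TR, 1.09, 0.371 and 0.305 in RA and 1.26 and 0.709 in TA, from 9 and 27 reads in the TR libraries. The RA libraries of HNRNPH2 lay below TR, replicate 1 only just, with a log2 difference of -1.39 (SE 0.51), given as a description because the gene passed the filter through TR alone. Its log2 difference of TA from RA was 0.78 (SE 0.51, limma adjusted p = 0.259). The read-through gene RPL36A-HNRNPH2, whose exons overlap those of HNRNPH2, is listed at 0 in all 7 libraries, and how reads on exons of both were counted is not given in the sources used here. HNRNPH3 was called in no comparison of the values as deposited, with log2 differences of 0.07 for RA from TR and 0.15 for TA from RA.

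The K, L, M and PTB class was the highest by median in both steps, with a median log2 difference of 1.18 for RA from TR and 0.83 for TA from RA over 4 genes. Close behind for RA from TR was the nuclear matrix and paraspeckle class, at 1.16 over 2 genes. Next for TA from RA was the FET class, at 0.73 over 2 genes. PTBP1 (chr19:797075-812327), the polypyrimidine tract-binding splicing repressor, had 70.9 and 58.7 RPKM in TR, 208, 111 and 154 in RA and 246 and 307 in TA. The 3 parameters of PTBP1 did not overlap and followed the order TR, RA, TA, with log2 differences of 1.24 (SE 0.29, limma adjusted p = 0.00519) and 0.85 (SE 0.29, limma adjusted p = 0.0503). The RA call was lost without TR replicate 2 (adjusted p = 0.0713). HNRNPK (chr9:86582998-86595546) had 66.2 and 59.9 RPKM in TR, 167, 136 and 136 in RA and 279 and 236 in TA, again without overlap and in the same order. Its log2 difference was 1.21 (SE 0.20, limma adjusted p = 0.000843) for RA from TR, a call kept under all 15 alternative fits, and 0.82 (SE 0.20, limma adjusted p = 0.0168) for TA from RA, a call lost without RA replicate 3 or TA replicate 1 (adjusted p = 0.0625 to 0.11). For HNRNPK, 30.3% of the mRNA stretches have exact copies elsewhere in the genome.

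HNRNPL (chr19:39327010-39342987), which binds CA repeats in introns, had 68.6 and 72.8 RPKM in TR, 189.6, 104 and 141 in RA and 197 and 323 in TA. These values too lay in the order TR, RA, TA without overlap, with log2 differences of 0.99 (SE 0.31, limma adjusted p = 0.0207) and 0.84 (SE 0.31, limma adjusted p = 0.0653). Its RA call was lost without RA replicate 3, TR replicate 1 or TR replicate 2 (adjusted p = 0.0535 to 0.13), and 26.2% of its mRNA is also annotated to ENSG00000268083 on the same strand. Elsewhere in the genome, 21.5% of the HNRNPL mRNA stretches occur exactly. HNRNPM, which binds GU-rich sequence, had 58.5 and 34.9 RPKM in TR, 217, 64.9 and 72.2 in RA and 122 and 132 in TA. RA replicate 1 of HNRNPM stood far above the other RA replicates, and neither difference was called, at 1.15 (SE 0.50, limma adjusted p = 0.0713) for RA from TR and 0.34 (SE 0.50, limma adjusted p = 0.627) for TA from RA. Without RA replicate 1, TA of HNRNPM was called above RA, by 0.89 on the log2 scale, with an adjusted p = 0.0358 in limma.

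Of the 6 genes whose proteins bind AU-rich, U-rich, GU-rich or Pumilio elements in mRNA, 3 were called lower for TA against RA. These were the 3 lower calls among the 36 genes, and 29.2% of all tested genes were called lower. TIA1 (chr2:70436576-70475792), which represses translation of bound mRNA and helps assemble stress granules, had 21.5 and 21.4 RPKM in TR, 17.6, 22.5 and 17.4 in RA and 5.70 and 4.22 in TA. Its TR and RA values overlapped and both TA libraries lay far below them, with log2 differences of -0.17 (SE 0.20, limma adjusted p = 0.489) for RA from TR and -1.94 (SE 0.20, limma adjusted p = 0.00249) for TA from RA. The TA level was thus 0.261 times the RA level, the largest fall among the 36 genes, and the call was kept under all 15 alternative fits. Its paralogue TIAL1 (TIAR; chr10:121331314-121356541) had 48.8 and 46.9 RPKM in TR, 47.6, 68.5 and 59.8 in RA and 36.5 and 35.8 in TA. Both TA libraries of TIAL1 lay below RA, with log2 differences of 0.28 (SE 0.19, limma adjusted p = 0.224) for RA from TR and -0.68 (SE 0.19, limma adjusted p = 0.0262) for TA from RA, a call lost without RA replicate 2, RA replicate 3, TA replicate 1, TA replicate 2, TR replicate 1 or TR replicate 2 (adjusted p = 0.0544 to 0.109) and after centring (-0.18, limma adjusted p = 0.527). Within a library the log2 ratio of TIA1 to TIAL1 was between -1.18 and -1.13 in TR, -1.78 and -1.43 in RA and -3.06 and -2.66 in TA, without overlap.

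PUM2 (chr2:20448452-20551995), a PUF protein that recruits deadenylases to Pumilio elements, had 25.8 and 24.1 RPKM in TR, 33.2, 33.3 and 35.5 in RA and 16.7 and 14.2 in TA. The RA libraries of PUM2 lay above TR and the TA libraries below both, with log2 differences of 0.44 (SE 0.16, limma adjusted p = 0.034) for RA from TR and -1.14 (SE 0.16, limma adjusted p = 0.0035) for TA from RA. The TA call was kept under all 15 alternative fits, with a smaller difference after centring (-0.64, limma adjusted p = 0.0246), and the RA call was lost without RA replicate 2, RA replicate 3, TR replicate 1 or TR replicate 2 (adjusted p = 0.054 to 0.107). PUM2 was the member called higher in RA against TR and lower in TA against RA, and RA enters these differences with opposite signs. ELAVL1 (HuR), which stabilizes mRNA with AU-rich elements, had 19.1 and 18.0 RPKM in TR, 33.8, 22.7 and 28.3 in RA and 27.9 and 35.1 in TA. Its log2 difference of RA from TR was 0.59 (SE 0.21, limma adjusted p = 0.0357), lost without RA replicate 1, RA replicate 3, TR replicate 1 or TR replicate 2 (adjusted p = 0.0756 to 0.163), and that of TA from RA was 0.16 (SE 0.21, limma adjusted p = 0.57). KHSRP (KSRP), which promotes decay of mRNA with AU-rich elements, was called higher for RA against TR, by 0.87 (SE 0.27, limma adjusted p = 0.0192), and this was lost without TR replicate 2 (adjusted p = 0.171). CELF1, which binds GU-rich elements, was called in no comparison of the values as deposited, with log2 differences of 0.13 and -0.13.

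Elements of the kind these proteins bind were counted in the 3′UTRs of the 36 genes, on the sense strand of the canonical transcript of each gene in GENCODE 44 on GRCh37. The Pumilio element TGTANATA was present in 13 of the 36, or 36.1%, against 27.4% of 13096 tested protein-coding genes, and at least 2 copies were present in 4 of the 36, or 11.1%, against 9.64%. The AU-rich nonamer TTATTTATT was present in 2 of the 36, or 5.56%, against 8.62%, and the pentamer ATTTA, which the nonamer contains, in 32 of the 36, or 88.9%, against 69.4%. The median 3′UTR was 1999 bases in the group and 1193 bases in all those genes, and longer sequence holds more matches. The Pumilio elements of the 4 genes with several copies are shown in capitals within 30 bases, 5′ to 3′ and as DNA, because they hold the most copies. Over the 13 genes with at least 1 element, the log2 difference of TA from RA was positive for 7 and negative for 6, with 1 called higher, KHDRBS1, and 2 lower, PUM2 and TIAL1. Over the 23 genes with none it was positive for 14 and negative for 9, with 1 called higher and 1 lower.
PUM2 first: gtttatagagaTGTATATAgaattatagtc (base 425 of the 3′UTR, chr2:20450903-20450932, strand -)
PUM2 second: tacagaaatatTGTATATActtacatatgt (base 685 of the 3′UTR, chr2:20450643-20450672, strand -)
TIAL1 first: atgatacatatTGTAAATAttcaataacta (base 788 of the 3′UTR, chr10:121334371-121334400, strand -)
TIAL1 second: attacttggtaTGTAAATAccttgattaaa (base 1097 of the 3′UTR, chr10:121334062-121334091, strand -)
HNRNPR first: aatcactattgTGTATATActcaagtcttt (base 143 of the 3′UTR, chr1:23636786-23636815, strand -)
HNRNPR second: atggagtatgcTGTAAATAaaaatacaagc (base 376 of the 3′UTR, chr1:23636553-23636582, strand -)
HNRNPR last: ggataagtgaaTGTACATAcagggaaaatt (base 1088 of the 3′UTR, chr1:23635841-23635870, strand -)
RBM39 first: atagtcccttaTGTATATAgctttttttct (base 20 of the 3′UTR, chr20:34292365-34292394, strand -)
RBM39 second: aaaagtttcttTGTAAATActatgtgttct (base 564 of the 3′UTR, chr20:34291821-34291850, strand -)
RBM39 last: gaaatttggtgTGTAAATAatgttcagagg (base 2063 of the 3′UTR, chr20:34290322-34290351, strand -)
Of these 4 genes, HNRNPR had a positive log2 difference of TA from RA and the other 3 a negative one. TIA1, with the lowest TA against RA, has no match to TGTANATA in its 3′UTR of 3275 bases. The AU-rich nonamers of ELAVL1 and TRA2A, the genes that hold this longer element, are shown with the nonamer in capitals.
ELAVL1 nonamer: atttatgtatTTATTTATTgaagtgtgaaa (base 1637 of the 3′UTR, chr19:8026711-8026740, strand -)
TRA2A nonamer: aggacaacccTTATTTATTacctagagcag (base 632 of the 3′UTR, chr7:23544527-23544556, strand -)
A match is a description of the sequence and no measured binding site.

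Among the splicing activators, KHDRBS1 was higher in both steps and TRA2B was lower in RA than in TR. KHDRBS1 (chr1:32479469-32526451) had 36.98 and 31.4 RPKM in TR, 98.7, 85.3 and 84.3 in RA and 158 and 137 in TA. The parameters did not overlap and followed the order TR, RA, TA, with log2 differences of 1.39 (SE 0.18, limma adjusted p = 0.000213) and 0.72 (SE 0.18, limma adjusted p = 0.0178). The RA call was kept under all 15 alternative fits, the TA call was lost without RA replicate 3 or TA replicate 1 (adjusted p = 0.0656 to 0.113), and no stretch of 50 bases of the KHDRBS1 mRNA occurs elsewhere in the genome. TRA2B (chr3:185632346-185655891), an SR-like activator of weak exons, had 69.1 and 80.5 RPKM in TR, 35.9, 32.8 and 26.8 in RA and 29.9 and 24.3 in TA. Its RA and TA libraries lay far below TR, with log2 differences of -1.24 (SE 0.19, limma adjusted p = 0.000634) for RA from TR and -0.23 (SE 0.19, limma adjusted p = 0.387) for TA from RA. The RA call was kept under all 15 alternative fits, with a smaller difference after centring (-0.56, limma adjusted p = 0.0354). TRA2A (chr7:23544399-23571660), its paralogue, had 36.4 and 42.9 RPKM in TR, 43.4, 49.1 and 34.4 in RA and 30.4 and 25.4 in TA, with log2 differences of 0.08 (SE 0.20, limma adjusted p = 0.736) and -0.59 (SE 0.20, limma adjusted p = 0.054).

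The log2 ratio of TRA2A to TRA2B within a library was -0.92 and -0.91 in TR, between 0.27 and 0.58 in RA, and 0.02 and 0.07 in TA. TRA2B was thus the higher of the pair in nascent RNA, while TRA2A was above it in all 5 RA and TA libraries. RBM39, a splicing coactivator, had 105 and 113 RPKM in TR, 55.4, 134 and 77.8 in RA and 59.9 and 53.4 in TA. RA replicate 2 of RBM39 exceeded both TR libraries while the other RA replicates lay below them, and the log2 differences were -0.39 (SE 0.33, limma adjusted p = 0.335) for RA from TR and -0.56 (SE 0.33, limma adjusted p = 0.226) for TA from RA. Without RA replicate 2, RA of RBM39 was called below TR, at -0.73 on the log2 scale. RBMX (hnRNP G) was called in no comparison of the values as deposited, at -0.02 for RA from TR, and 46.2% of its mRNA stretches occur elsewhere, the highest share of the group.

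The FET proteins TAF15 and EWSR1, which act in transcription and RNA processing, were called higher in TA against TR but in neither single step. TAF15 (chr17:34136486-34191619) had 81.1 and 46.3 RPKM in TR, 136, 105 and 64.8 in RA and 212 and 132 in TA, with log2 differences of 0.67 (SE 0.38, limma adjusted p = 0.156) and 0.78 (SE 0.38, limma adjusted p = 0.146). EWSR1 (chr22:29663998-29696515) had 53.6 and 45.7 RPKM in TR, 85.8, 57.7 and 52.3 in RA and 103 and 100.4 in TA, with log2 differences of 0.36 (SE 0.23, limma adjusted p = 0.201) and 0.67 (SE 0.23, limma adjusted p = 0.0561). Both TA libraries of EWSR1 lay above all of its RA libraries, while the TA and RA values of TAF15 overlapped. The log2 difference of TA from TR was 1.45 (SE 0.42, limma adjusted p = 0.0135) for TAF15 and 1.04 (SE 0.26, limma adjusted p = 0.00634) for EWSR1. The TAF15 call was lost without TA replicate 1 or TR replicate 2 (adjusted p = 0.0884 to 0.145), and the EWSR1 call without TR replicate 2 (adjusted p = 0.0612). The ratio of TAF15 to EWSR1 overlapped between all 3 parameters. For EWSR1, 18.2% of the mRNA stretches occur elsewhere in the genome.

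RBM3 and CIRBP, glycine-rich proteins induced by mild cold, both lay below zero in both steps, and 1 of these 4 differences was called. CIRBP (chr19:1259383-1274879) had 89.8 and 99.5 RPKM in TR, 45.0, 48.0 and 28.1 in RA and 31.7 and 20.8 in TA. Every RA and TA value of CIRBP lay below both TR values, with log2 differences of -1.26 (SE 0.28, limma adjusted p = 0.00415) for RA from TR and -0.61 (SE 0.28, limma adjusted p = 0.122) for TA from RA. The RA call was lost without TR replicate 2 (adjusted p = 0.0624) and after centring (-0.59, limma adjusted p = 0.102). RBM3 (chrX:48432837-48439550) had 38.3 and 46.6 RPKM in TR, 47.3, 40.4 and 38.1 in RA and 30.9 and 31.6 in TA, with log2 differences of -0.02 (SE 0.17, limma adjusted p = 0.935) and -0.42 (SE 0.17, limma adjusted p = 0.0944), and after centring its difference of RA from TR was positive (0.65, limma adjusted p = 0.00965). The log2 ratio of RBM3 to CIRBP was -1.23 and -1.09 in TR and between -0.25 and 0.44 in RA, and lay at -0.04 and 0.60 in TA. CIRBP was therefore the more abundant of the pair in nascent RNA, and in the mRNA libraries neither was higher throughout.

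**Figure D3:**
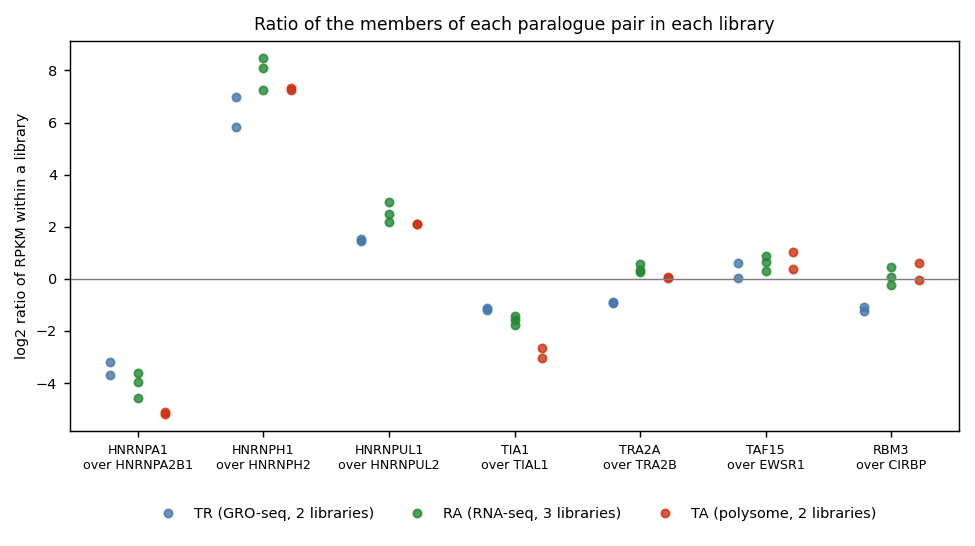
Log2 ratio of the RPKM of the first to the second gene of 7 paralogue pairs within each library, with TR in blue, RA in green and TA in red, and a line at equal levels. TRA2A over TRA2B and RBM3 over CIRBP lie near -1 in TR and between -0.25 and 0.60 in RA and TA, and TIA1 over TIAL1 is lowest in TA.

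Of the nuclear matrix and paraspeckle proteins, NONO and MATR3 were both called higher in RA than in TR. NONO (chrX:70474664-70521372), a core paraspeckle protein that pairs with SFPQ, had 49.4 and 39.6 RPKM in TR, 149, 121 and 101 in RA and 179 and 138 in TA. All RA and TA values of NONO exceeded both TR values, with a log2 difference of RA from TR of 1.47 (SE 0.23, limma adjusted p = 0.0007), the largest of the 36 and kept under all 15 alternative fits, and of TA from RA of 0.36 (SE 0.23, limma adjusted p = 0.259). For NONO, 26.9% of the mRNA stretches have exact copies elsewhere in the genome. MATR3, an RNA-binding protein of the inner nuclear matrix, had 38.4 and 29.1 RPKM in TR, 70.5, 58.5 and 52.9 in RA and 56.0 and 46.9 in TA. Its RA libraries all lay above TR, with a log2 difference of 0.85 (SE 0.20, limma adjusted p = 0.00656), lost without TR replicate 2 (adjusted p = 0.0662), and of -0.23 (SE 0.20, limma adjusted p = 0.407) for TA from RA. A further MATR3 entry and SNHG4 cover 97.8% of the annotated MATR3 mRNA on the same strand, so the MATR3 level is uncertain.

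Since genomic copies and overlapping genes could change the counts of several members, the calls were also counted over the 21 genes with less than 10% of the mRNA in such sequence. For RA against TR, 7 of the 21 (33.3%) were called higher and 2 (9.52%) lower, beside 19.2% and 48.0% of all tested genes. For TA against RA 1 (4.76%) and 3 (14.3%) were called, beside 6.66% and 29.2%, and for TA against TR 8 (38.1%) and 5 (23.8%), beside 17.0% and 57.5%. The 7 were ELAVL1, HNRNPD, HNRNPF, KHDRBS1, KHSRP, PTBP1 and PUM2, and the 2 were CIRBP and TRA2B. The 15 genes left out were HNRNPA1, HNRNPA3, HNRNPAB, HNRNPC, HNRNPU, HNRNPUL1, HNRNPUL2, HNRNPH2, HNRNPK, HNRNPL, RBMX, EWSR1, RBM3, MATR3 and NONO.

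The annotation of the group was set beside that of all tested protein-coding genes, with no test. UTRs made up a median of 54.1% of the mRNA, against 49.4% in 13096 tested protein-coding genes. At least 1 transcript annotated to nonsense-mediated decay was listed for 23 of the 36, or 63.9%, against 45.1%, and a retained-intron transcript for 28, or 77.8%, against 58.3%. The group also had more annotated transcripts per gene, with a median of 15.5 against 8, so more of every kind can be listed. RBM39, with 47 annotated transcripts, has 16 in each of these kinds, and HNRNPA2B1 has 35 of 49 annotated to nonsense-mediated decay.

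Across the 36 genes, the log2 difference of TA from RA was lower where UTRs took more of the mRNA, with Pearson's r of -0.419 and Spearman's rho of -0.415. For RA from TR the values were -0.393 and -0.407. Over the 13096 genes, r was -0.166 for TA from RA and 0.0993 for RA from TR. These are descriptions across genes that share the same 7 libraries, and genes are not independent replicates. Of the 18 genes above the median UTR share, 7 had a TA above RA, with a median log2 difference of -0.09, and of the 18 at or below it 14 did, with a median of 0.41. HNRNPA2B1, with 71.7% UTR, was among the highest in TA against RA, and PUM2, with 49.4%, among the lowest, so the order was loose. Without TIA1 and PUM2, r for TA from RA was -0.476 over 34 genes.

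**Figure D4:**
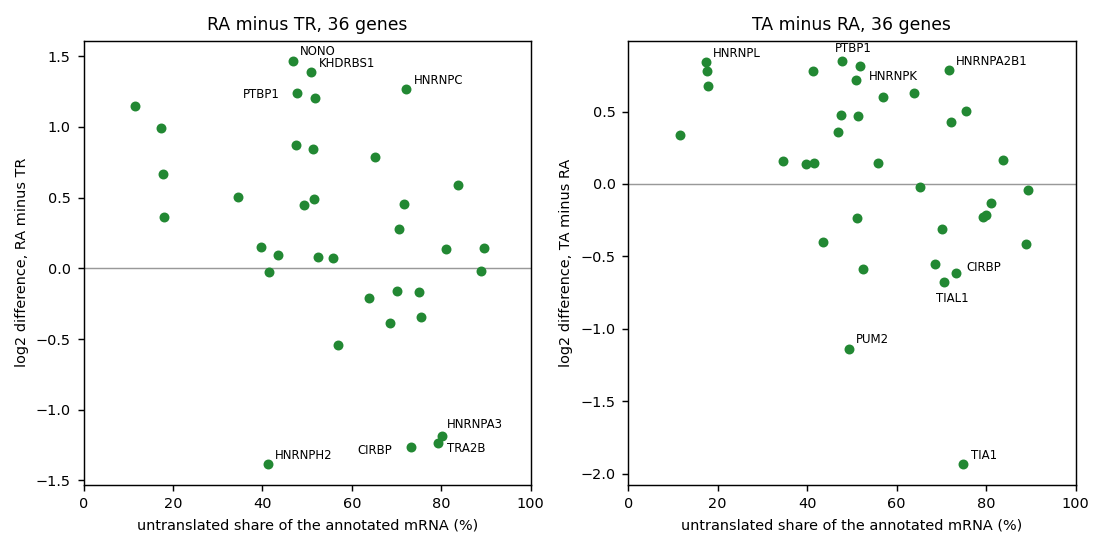
Log2 difference of RA from TR (left) and of TA from RA (right) against the share of the annotated mRNA that is untranslated, in percent, with 1 point for each of the 36 genes and names for the 4 highest and 4 lowest. Points fall loosely from left to right in both panels, with r of -0.393 on the left and -0.419 on the right, and TIA1 and PUM2 lie lowest on the right.

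Paralogues and related RNA-binding protein genes outside the group were counted for comparison, from a list of 46, of which 41 passed the filter. For RA against TR, limma called 9 (22.0%) higher and 14 (34.1%) lower, beside 19.2% and 48.0% of all tested genes. For TA against RA it called 6 (14.6%) higher and 6 (14.6%) lower, beside 6.66% and 29.2%, and for TA against TR 10 (24.4%) and 18 (43.9%), beside 17.0% and 57.5%. Of the 41, 6 passed the filter through TR alone and all 6 were among the lower calls against TR. CELF6, 1 of these, was also among the lower calls of TA against RA. In the fit over genes with 1 RPKM in each parameter, 9 of 35 were higher and 8 lower for RA against TR, beside 24.3% and 33.8% of the 10825 genes. That fit gave 6 and 6 for TA against RA, beside 8.87% and 29.8%, and 10 and 12 for TA against TR, beside 21.6% and 45.6%. Centring gave 19 (46.3%) higher and 10 (24.4%) lower of the 41 for RA against TR, beside 35.4% and 33.7% of all tested genes. It gave 11 (26.8%) and 2 (4.88%) for TA against RA, beside 19.0% and 9.81%. The counts for TA against TR were 20 (48.8%) and 8 (19.5%), beside 38.0% and 35.3%. PTBP2 and PTBP3, paralogues of PTBP1, had log2 differences of RA from TR of -1.39 (SE 0.28, limma adjusted p = 0.00257) and 1.11 (SE 0.23, limma adjusted p = 0.00271). TA of PTBP3 was below RA, at -1.26 on the log2 scale (SE 0.23, limma adjusted p = 0.0062), where that of PTBP1 was above RA in every library.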

How the data were processed

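RNA of HCT116 cells was measured by GRO-seq (2 libraries), RNA-seq (3) and polysome profiling (2). The authors aligned reads with TopHat under default settings to hg19, counted those on exons by HTSeq-count and deposited the resulting RPKM. Tool versions, counting mode, strand setting and gene annotation are not given in the sources used here. RPKM were used without further normalization. Library sizes were worked out from them, since 100% of values gave whole reads within 0.001. Genes with a mean of 1 RPKM in at least 1 parameter, 14305, were tested with limma 3.58.1 in R 4.3.3 (eBayes with trend) on log2(RPKM + 0.1), which understates changes of low genes. All 7 libraries entered 1 fit, with Benjamini-Hochberg adjustment at 0.05. The fit was tested on simulated data. An exact permutation test of 3 against 2 libraries cannot go below p = 0.1, so none was used. P-values measure the spread between libraries, described as biological replicates, and the pooling of 4 samples per sequencing lane is not broken down.

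Every member is named, with all libraries for the 5 highest and 5 lowest in RA against TR and in TA against RA and for paralogue pairs. The members and lists were chosen with earlier results of these data known. Annotation and sequence came from GENCODE 44 on GRCh37, which matched 94.2% of tested symbols, and from the GRCh37 genome. Statistics were computed in Python 3.11.15 with pandas 2.3.3 and scipy 1.17.1, and plots in matplotlib 3.10.9.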

Additional observations from a re-analysis of the deposited data

How the results depend on the processing

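Counts of called genes kept their size, within 1.5 times, with pseudocounts of 0.01 and 1, without the filter or with 1 RPKM required in each parameter, without the trend, and with library weights by assay, an alternative chosen after seeing the data. After centring on library medians, which moves the zero, there were 25 higher and 1 lower calls for RA against TR, 16 higher for TA against RA, and 29 higher and 1 lower for TA against TR. It changed the sign for 8 of the 36 genes in RA against TR, 9 in TA against RA and 8 in TA against TR. Where the difference was called before or after centring, it was reversed for RA from TR in HNRNPA1 to 0.51, RBMX to 0.65 and RBM3 to 0.65, and for TA from TR in HNRNPA1 to 0.71, TIAL1 to 0.77, PUM2 to 0.48, TRA2A to 0.67, RBM39 to 0.23 and RBM3 to 0.74. Leaving out members with 10% or more shared or overlapped mRNA, also chosen after seeing the data, left 7 higher and 2 lower calls for RA against TR, 1 higher for TA against RA and 8 higher for TA against TR, from 21 genes. Leaving out 1 library at a time, which also lowers the degrees of freedom, gave 4 to 12 higher and 1 to 5 lower calls for RA against TR, 0 to 12 and 2 to 4 for TA against RA, and 9 to 16 and 5 to 7 for TA against TR, and reversed no difference with a call. Among single calls of RA against TR, HNRNPD, HNRNPH2, HNRNPL, ELAVL1 and KHSRP were lost without the filter, and HNRNPD, ELAVL1 and PUM2 without the trend. HNRNPD and HNRNPH2 were lost with a pseudocount of 0.01, and HNRNPD also with a pseudocount of 1 and with 1 RPKM required in each parameter. Losses with the replicate block are given below. Among those of TA against TR, HNRNPM, RBM39, TAF15 and MATR3 were lost without the filter and RBM39 without the trend. The share of all tested genes called in the refits without 1 library was not set beside the counts given here.

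Replicate numbers were not shown to pair the libraries. The difference between replicates 1 and 2 correlated at r = 0.149 between TR and RA, -0.562 between RA and TA and 0.020 between TR and TA over 10825 genes. The study describes dividing HCT116 cells among the assays but ties no replicate number to a division. With the replicate block, TA against RA gave 0 higher and 2 lower calls, RA against TR 8 and 3, and TA against TR 14 and 5. The limma adjusted p of TA against RA was then 0.086 for HNRNPK, 0.0873 for KHDRBS1 and 0.121 for TIAL1. For RA against TR, the calls of HNRNPD, HNRNPUL1, HNRNPF, HNRNPH2, HNRNPL, ELAVL1, KHSRP and PUM2 were lost with the block, while HNRNPM and TAF15 were called higher. The block also lowers the degrees of freedom, and the share of all tested genes called under it was not set beside these counts. Depth limits HNRNPH2 most, with 9 reads in the smallest library.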

Other observations

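HNRNPA1, known as an abundant nuclear protein, ranked at percentile 53.6 of the tested genes by TR, 60.7 by RA and 61.7 by TA. HNRNPA2B1 ranked at 98.8, 98.7 and 99.1. The exon length behind the deposited HNRNPA1 values was 1925 bases, against 3744 bases of the canonical mRNA in the annotation used here, and 40.1% of the 50-base stretches of that mRNA occur elsewhere in the genome. RBMX, with 46.2% of such stretches, ranked at 85.6, 84.8 and 86.3. The part of the shared sequence in these levels was not tested.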
